A study of Mus musculus with 4 samples.

Results

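In tumor-associated macrophages (TAMs), 9 genes of pericellular proteolysis were examined, of the 16739 genes with a value in any of the 4 libraries. They were taken by symbol and matched by Entrez identifier, and all 9 were above 0 in all 4 libraries. They comprise 5 matrix metalloproteinases (Mmp9, Mmp12, Mmp13, Mmp14 and Mmp19), 2 tissue inhibitors of metalloproteinases (Timp1 and Timp2), and urokinase with its receptor (Plau and Plaur). TAMs were sorted as CD45+CD11b+F4/80+ cells from subcutaneous B16-F10 melanomas, tumors of a C57BL/6 melanoma line, on day 16 after injection into mice 6 to 8 weeks old. The 2 WT libraries came from C57BL/6 mice, described in the study's methods as WT littermates. The other 2 libraries carry the genotype label Trim24-/-, in C57BL/6 mice with a conditional Trim24 deletion by LysM-Cre, a recombinase driven from the lysozyme M locus in myeloid cells, neutrophils included. The labels do not say whether a library came from a single mouse or from a pool, so p-values measure only the spread between these libraries.

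Matrix metalloproteinases (MMPs) are zinc-dependent endopeptidases that cut collagens, elastin and other matrix proteins, and most are secreted as inactive proenzymes. TIMPs bind the active site of MMPs and block it. Urokinase, held on the cell surface by its receptor, converts plasminogen to plasmin, a serine protease that degrades fibrin and can activate several proMMPs. TAMs are a known source of these proteases and of their receptors in solid tumors.

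Library totals ran from 4476122 to 5172407 expected counts, and 3 counts correspond to 0.606 to 0.639 CPM (counts scaled to a common TMM-adjusted library size), a floor for counting error only. Trim24 itself was at 5.86 and 2.08 CPM in WT (replicate 1 first here and throughout) and at 3.41 and 0.411 CPM in those labelled Trim24-deficient, so the groups overlapped (p = 0.667, two-sided exact permutation, 2 libraries each). These values rest on 28.8 and 10.2 counts in WT and on 16.1 and 2 counts in the other group, the last below that floor. Counts this low do not decide whether the genotype label holds. Xist, the X-inactivation RNA, was at 10.9 and 6.46 CPM in WT and at 437 and 256 CPM in those labelled Trim24-deficient, and Ddx3y, a Y-linked gene, had 73.7 and 102 CPM against 0.426 and 0.411 CPM. Sex and genotype label therefore cannot be told apart in any difference given here, which bears most directly on the X-linked Timp1. The study's methods describe the mice given tumors as age- and sex-matched, whereas Xist and Ddx3y part these libraries along the genotype labels. The macrophage markers Cd68, Adgre1 and Csf1r stood between 1038 and 2137 CPM in every library, while the 7 melanoma markers summed to 611 to 813 CPM.

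Within a library, FPKM (fragments scaled for transcript length and library size) allows the levels of different genes to be compared. Plaur, the urokinase receptor, led in both groups, at 82.4 ± 11 FPKM in WT and 113 ± 31.0 FPKM in those labelled Trim24-deficient (SD, n = 2 each), and its mean over the 4 libraries exceeded that of 91.5% of the 11302 genes tested. Timp2, a secreted MMP inhibitor, followed in WT at 44.5 ± 11.9 FPKM. Its WT libraries overlapped those of Mmp14, the membrane-anchored MMP with which Timp2 forms a complex on the cell surface. Below them in WT stood Plau at 24.4 ± 1.73 FPKM, Mmp12, the macrophage elastase, at 17.7 ± 3.70 FPKM, and the collagenase Mmp13 at 11.4 ± 2.33 FPKM. Mmp19 followed at 6.04 ± 0.431 FPKM, Timp1 at 3.62 ± 1.19 FPKM and the gelatinase Mmp9 at 1.62 ± 0.841 FPKM. From Mmp14 downwards, every WT library of a gene was above every WT library of the next.

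The order was flatter in the 2 libraries labelled Trim24-deficient. Timp2 stood there at 16.9 ± 9.35 FPKM, behind Mmp14 (25.2 ± 4.34 FPKM), Plau (22.5 ± 1.34 FPKM), Mmp12 (22.2 ± 1.96 FPKM) and Mmp13 (21.1 ± 1.28 FPKM). For each neighbouring pair among these 5 genes, the range of the 2 libraries of one gene overlapped that of the next. Mmp19 (6.75 ± 0.0636 FPKM) was below them in both libraries, and Timp1 (3.21 ± 2.26 FPKM) and Mmp9 (1.85 ± 1.46 FPKM) again came last, with overlapping libraries.

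**Figure D1:**
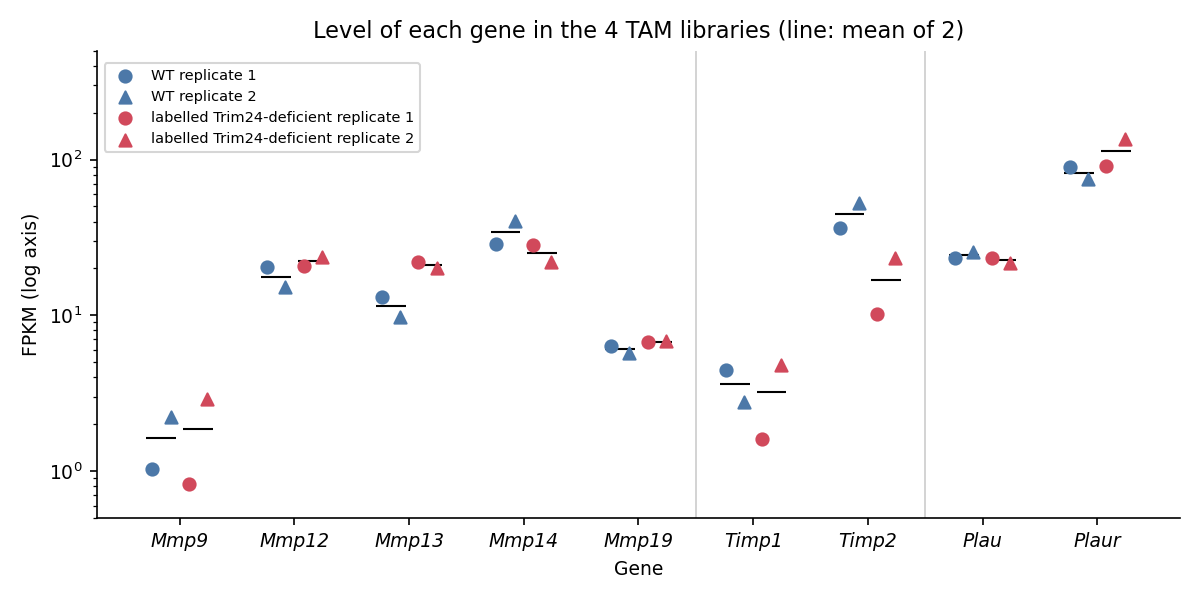
FPKM (log axis) of each of the 9 genes in the 4 TAM libraries, with circles for replicate 1, triangles for replicate 2 and a line at the mean of 2. Plaur is the highest gene in every library, and Timp2 is at 36.1 and 52.9 FPKM in WT and at 10.2 and 23.5 FPKM in those labelled Trim24-deficient.

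The comparison of the genotype labels asked whether these genes differed between WT TAMs and TAMs labelled Trim24-deficient. None of the 9 genes passed a fold change above 1.5 with an adjusted p below 0.05 in edgeR's quasi-likelihood test, a rule met by 0.372% of the 11302 genes tested (0.292% higher and 0.0796% lower). DESeq2 passed 1 of the 9, Timp2, by the same rule (1.46% of 11190 genes), and limma on log2(FPKM + 1) passed 0 (0.207% of 11093 genes). At an unadjusted p below 0.05 in edgeR, 3 of the 9 remained (Mmp13 and Plaur higher, Timp2 lower), against 12.2% of all genes tested (6.58% higher and 5.62% lower). Both libraries labelled Trim24-deficient lay above both WT libraries for 4 genes (Mmp12, Mmp13, Mmp19 and Plaur) and below them for 1 (Timp2). That is 5 of 9, and 44.5% of all tested genes had groups that did not overlap (21.4% higher and 23% lower), so this count is near the background. The median log2 fold change was 0.32 over the 9 genes and -0.01 over all genes tested. In bulk RNA, fewer cells of a type and less RNA per cell cannot be told apart.

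Upstream sequences are shown for the 3 genes with an unadjusted p below 0.05 and for Mmp12, the neighbour of Mmp13 on chromosome 9. For Mmp12 both annotated start sites are shown, the later of them inside the gene. These sequences are the 250 bases before an annotated start site, 5′ to 3′, from RefSeq on GRCm38.p6. Those of Timp2 also lie inside that gene's span in the GENCODE annotation of GRCm38, chr11:118301069-118355740. Capitals mark TGANTCA (the AP-1 motif) and TATAAA (the TATA box).
Mmp13, chr9:7272264-7272513, plus strand: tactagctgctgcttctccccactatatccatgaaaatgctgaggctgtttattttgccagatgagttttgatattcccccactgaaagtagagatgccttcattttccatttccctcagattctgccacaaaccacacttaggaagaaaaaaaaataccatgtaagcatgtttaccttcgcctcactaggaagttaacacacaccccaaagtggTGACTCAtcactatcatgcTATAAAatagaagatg
Mmp12, chr9:7344147-7344396, plus strand: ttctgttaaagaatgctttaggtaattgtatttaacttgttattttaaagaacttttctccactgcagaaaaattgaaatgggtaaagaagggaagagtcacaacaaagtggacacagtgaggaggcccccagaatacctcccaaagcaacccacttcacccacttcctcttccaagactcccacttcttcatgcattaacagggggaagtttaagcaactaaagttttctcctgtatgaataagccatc
Mmp12, chr9:7347124-7347373, plus strand: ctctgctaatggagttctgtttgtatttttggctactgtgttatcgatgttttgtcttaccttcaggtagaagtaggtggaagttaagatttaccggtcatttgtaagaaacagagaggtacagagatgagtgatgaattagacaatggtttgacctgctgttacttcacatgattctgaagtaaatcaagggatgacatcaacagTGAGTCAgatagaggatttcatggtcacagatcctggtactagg
Plaur, chr7:24462233-24462482, plus strand: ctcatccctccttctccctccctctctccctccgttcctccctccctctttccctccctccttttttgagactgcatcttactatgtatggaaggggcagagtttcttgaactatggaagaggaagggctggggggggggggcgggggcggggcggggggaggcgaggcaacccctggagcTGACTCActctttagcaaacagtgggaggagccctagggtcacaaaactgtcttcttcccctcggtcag
Timp2, chr11:118355412-118355661, minus strand: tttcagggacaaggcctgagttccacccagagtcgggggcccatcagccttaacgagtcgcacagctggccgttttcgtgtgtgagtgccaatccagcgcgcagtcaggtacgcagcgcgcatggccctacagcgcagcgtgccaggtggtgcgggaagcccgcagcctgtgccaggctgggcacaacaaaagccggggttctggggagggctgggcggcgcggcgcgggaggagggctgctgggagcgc

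The table of start sites held windows of 300 bases, 250 before and 50 after the start, for 6 of the 9 genes, with 2 windows for Mmp12. Mmp9, Mmp19 and Plau had no window. TGANTCA, which reads the same on both strands, was in the windows of Mmp13 (first base at -35 from the start), Plaur (-69) and 1 of the 2 windows of Mmp12 (-44), and in 7.81% of all 32851 windows. TATAAA, searched on both strands, was at -16 in Mmp13 and at 5 in the same Mmp12 window, and in 13.6% of all windows. The Stat6-type motif (TTC, any 4 bases, GAA), also the same on both strands, was in 6.95% of all windows and in none of these 7. The windows of Timp1, Timp2 and Mmp14 held none of the 3 motifs. A match to these letters is a description of the sequence and not a binding site.

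Among the proteases, Mmp13 had the smallest p. This collagenase, the main interstitial collagenase of mice, was at 34.3 and 24.6 CPM in WT, and at 62.2 and 57.9 CPM in those labelled Trim24-deficient. Both of the latter were above both WT libraries, and the gap between the groups exceeded the difference within either. The log2 fold change was 1.03 ± 0.22 (SE, edgeR adjusted p = 0.112), a 2.04-fold difference with a 95% confidence interval of 1.44 to 2.88. With 1 library left out the log2 fold change ran from 0.81 to 1.30. It was 0.98 without replicate 1 labelled Trim24-deficient and 1.08 without replicate 2 of that label. Without WT replicate 1 it was 1.30, and without WT replicate 2 it was 0.81. Such fits leave 1 library in a group, so only the size of the difference is given.

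Mmp12, which degrades elastin and is a product of macrophages above all, was at 72.1 and 51.5 CPM in WT and at 79.4 and 91.4 CPM in those labelled Trim24-deficient. The groups did not overlap, but WT replicate 1 lay closer to the other group than to WT replicate 2. The log2 fold change was 0.47 ± 0.22 (SE, edgeR adjusted p = 0.42). Mmp19, which cleaves basement membrane proteins, stood at 20.6 and 18.3 CPM against 23.6 and 24.9 CPM, with a log2 fold change of 0.32 ± 0.23 (SE, edgeR adjusted p = 0.617).

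Mmp14 and Mmp9 overlapped between the groups. Mmp14, which activates the gelatinase proMMP2 on the cell surface, had 107 and 145 CPM in WT and 114 and 90.4 CPM in those labelled Trim24-deficient (log2 fold change -0.30 ± 0.22 SE, edgeR adjusted p = 0.609). Mmp9 was scarce, at 3.23 and 6.67 CPM in WT and 2.77 and 9.86 CPM in the other group. In both groups replicate 2 was the higher library for Mmp9, by more than the groups differed. Its log2 fold change of 0.36 had a standard error of 0.61, and was below 0 without WT replicate 1 (-0.06) and without the library labelled Trim24-deficient replicate 2 (-0.83). The 95% confidence interval of the Mmp9 fold, 0.494 to 3.32, covers both a loss and a gain.

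The inhibitor Timp2 had the largest log2 fold change in size among the 9 genes. It was at 129 and 181 CPM in WT, and at 39.4 and 91.6 CPM in those labelled Trim24-deficient. Both of the latter were below both WT libraries, and replicate 1 was the lower library in each group. The log2 fold change was -1.24 ± 0.35 (SE, edgeR adjusted p = 0.205), 2.37-fold lower, with a 95% confidence interval of -2.02 to -0.46 on the log2 scale. Without the library labelled Trim24-deficient replicate 1 the log2 fold change was -0.75, and without replicate 2 of that label it was -1.97. It was -1.45 without WT replicate 1 and -0.98 without WT replicate 2. The Timp2 locus holds the nested gene Cep295nl on the same strand, which had at most 6 counts in any library.

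Timp1, the inhibitor that binds proMMP9 as well as active MMPs, had 7 to 22 counts per library. Its values were 3.84 and 2.29 CPM in WT and 1.49 and 4.52 CPM in those labelled Trim24-deficient, and the latter spanned the WT values. The log2 fold change of -0.02 had a standard error of 0.63 (edgeR adjusted p = 0.99) and turned to 0.41 without WT replicate 1 and 0.56 when replicate 1 of the other group was left out. The 95% confidence interval of its fold was 0.368 to 2.62. Timp1 lies within the Syn1 locus on the opposite strand, and Syn1 had 1 to 12 counts per library.

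Of the urokinase pair, the protease and its receptor gave different values. Plau was at 53.1 and 56.3 CPM in WT and at 57.9 and 54.0 CPM in those labelled Trim24-deficient, with both groups inside the same narrow range. Its fold was 1.02 with a 95% confidence interval of 0.765 to 1.37 (edgeR adjusted p = 0.961), and the sign of its log2 fold change of 0.034 turned with library totals in place of TMM (-0.11) and with upper-quartile scaling (-0.022), with limma at either pseudocount (-0.11), and without the library labelled Trim24-deficient replicate 1 (-0.012). Plaur was at 132 and 105 CPM in WT and at 144 and 216 CPM in those labelled Trim24-deficient. Both of the latter were above both WT libraries, with replicate 1 of that label close to WT replicate 1. The log2 fold change was 0.61 ± 0.24 (SE, edgeR adjusted p = 0.35), a 1.52-fold difference with a 95% confidence interval of 1.05 to 2.2. When replicate 1 labelled Trim24-deficient was left out the log2 fold change was 0.88, and without replicate 2 of that label it was 0.29. It was 0.80 without WT replicate 1 and 0.45 without WT replicate 2.

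**Figure D2:**
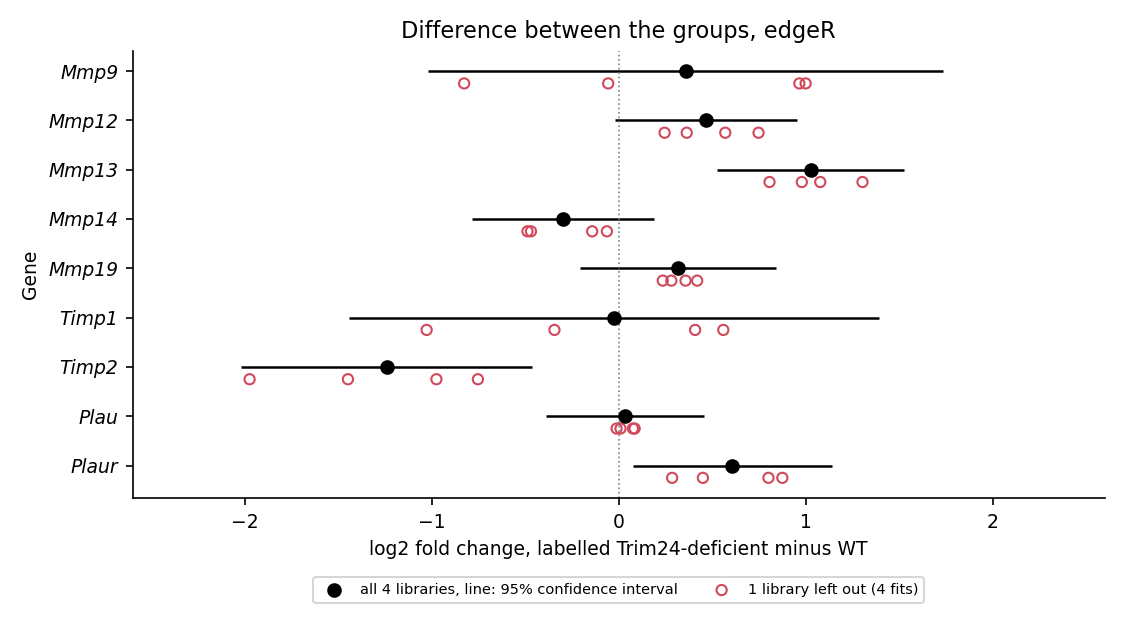
log2 fold change of each gene, libraries labelled Trim24-deficient minus WT, from edgeR (filled point, with its 95% confidence interval as a line) and from the 4 fits that left out 1 library (open points). Mmp13 (1.03), Plaur (0.61) and Timp2 (-1.24) have intervals that do not include 0 before adjustment, and the open points of Mmp9 and Timp1 lie on both sides of 0.

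Proteases and inhibitors were then set beside each other within each library. The 5 MMPs summed to 69.3 and 73.2 FPKM in WT replicates 1 and 2 and to 78.6 and 75.6 FPKM in those labelled Trim24-deficient. Timp1 and Timp2 together summed to 40.5 and 55.7 FPKM against 11.8 and 28.3 FPKM. Neither the protease sums nor the inhibitor sums overlapped between the groups, and the protease sums lay closer together. The ratio of the sums was 1.71 and 1.31 in WT and 6.63 and 2.67 in those labelled Trim24-deficient, a difference of 1.49 on the log2 scale with a pooled SD of 0.682 within groups. Timp2 made up 83% to 95% of the inhibitor sum in every library. With Timp1 alone as the inhibitor, an alternative chosen after seeing the data, the ratio was 15.5 and 26.4 in WT and 48.8 and 15.7 in the other group, which overlap. These sums describe transcripts, carry no test, and the 2 libraries labelled Trim24-deficient differed from each other more than the WT pair.

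**Figure D3:**
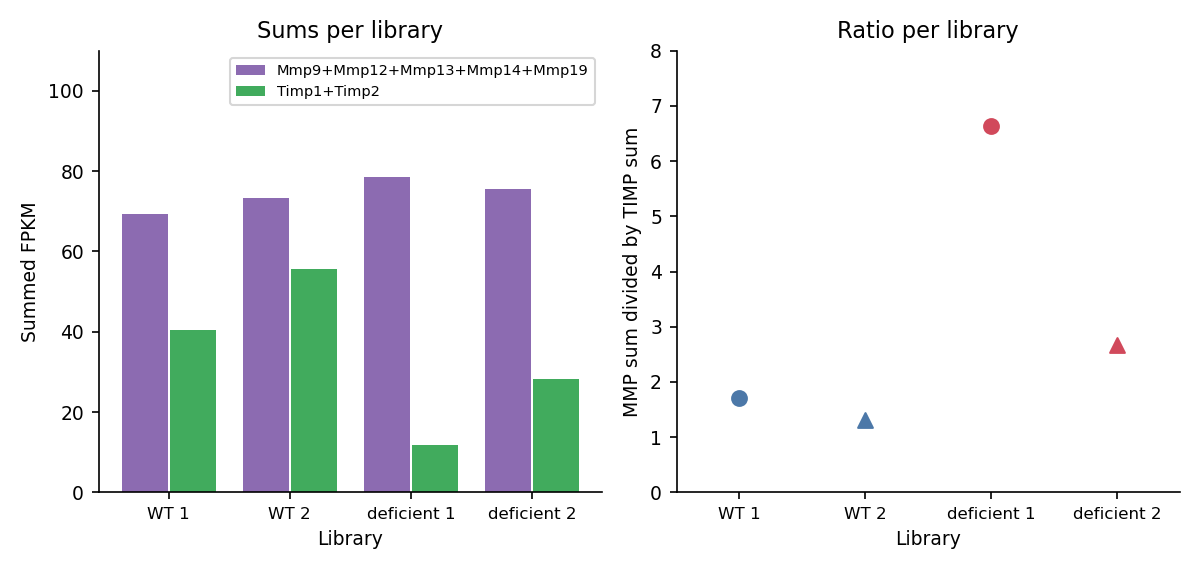
Left, summed FPKM of the 5 MMPs and of Timp1 with Timp2 in each library (bars from 0); right, the ratio of the 2 sums. The MMP sum lies between 69.3 and 78.6 FPKM in all 4 libraries, and the ratio is 1.71 and 1.31 in WT against 6.63 and 2.67 in those labelled Trim24-deficient.

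The makeup of the protease sum also differed between libraries. Mmp14 made up 41.1% and 55.2% of it in WT and 36% and 29.3% in those labelled Trim24-deficient. Mmp13 made up 18.9% and 13.4% in WT against 28.0% and 26.8%. The 2 groups did not overlap for either share. Mmp12 held between 20.6% and 31.2%, Mmp19 between 7.84% and 9.16%, and Mmp9 between 1.04% and 3.81%, with overlapping groups for all 3. Plaur exceeded Plau by 3.89 and 2.91 times in WT and by 3.9 and 6.27 times in those labelled Trim24-deficient, on the FPKM scale.

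Mmp12 and Mmp13 lie beside each other in the MMP gene cluster of chromosome 9. In the GENCODE annotation of GRCm38, Mmp13 spans chr9:7272514-7283331 and Mmp12 chr9:7344381-7369499, both on the plus strand with 10 exons in the longest basic transcript, and 61.0 kb separate them. The cluster holds 10 of the MMP genes listed here over 427 kb, and only 4 of them passed the filter on low counts. Besides Mmp12 and Mmp13 these were Mmp8 and Mmp27. Mmp8, a collagenase best known from neutrophils, was at 7.67 and 16.0 CPM in WT and at 16.2 and 38.6 CPM in those labelled Trim24-deficient, with groups apart by a narrow margin (log2 fold change 1.21 ± 0.45 SE, edgeR adjusted p = 0.322). Mmp27 was at 13.1 and 25.2 CPM against 10.01 and 20.8 CPM, with overlapping groups (log2 fold change -0.31 ± 0.41 SE, edgeR adjusted p = 0.802). Replicate 2 was the higher library of each group for both Mmp8 and Mmp27. The other 6 genes of the cluster did not pass the filter: Mmp3, Mmp7, Mmp10 and Mmp20 had at most 0.62 FPKM in any library, and Mmp1a and Mmp1b were listed in no library.

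**Figure D4:**
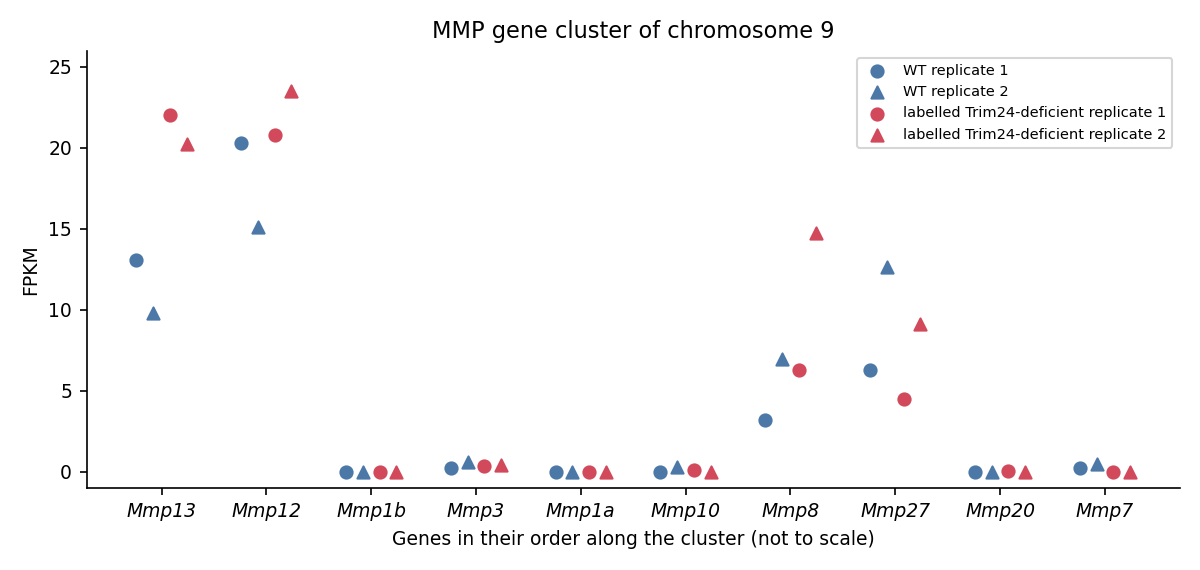
FPKM of the 10 MMP genes of the chromosome 9 cluster in their order along the chromosome, in the 4 TAM libraries. Only Mmp13, Mmp12, Mmp8 and Mmp27 stand above 1 FPKM, and Mmp13 is at 22.0 and 20.2 FPKM in those labelled Trim24-deficient against 13.1 and 9.79 FPKM in WT.

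The remaining members lie apart from this cluster and from each other, with only Mmp14 and Plau sharing chromosome 14. Mmp9 spans chr2:164940780-164955850, Mmp14 chr14:54431612-54445364, Mmp19 chr10:128790910-128800824, Plau chr14:20836660-20843385, Plaur chr7:24462484-24475968 and Timp1 chrX:20870166-20874735, all on the plus strand. Timp2 spans chr11:118301069-118355740 on the minus strand. Mmp19 overlaps Tmem198b on the opposite strand, which had 51.0 to 94.2 counts per library, and whether the libraries kept strand is not given in the sources used here, so reads of the 2 genes may not have been told apart.

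Beyond the 9 genes, the rest of the system was read from 6 lists of 62 genes, of which 29 passed the filter on low counts. None of the 29 passed the rule in edgeR, against the same 0.372% of all genes tested. DESeq2 passed 2 of the listed genes (Lcn2 and Serpinb2), which had 5 counts or fewer in each WT library and entered the test only through the other group, so the calls are given as a description. By the same rule limma on log2(FPKM + 1) passed 0. In edgeR, 7 of the 29 (6 higher, 1 lower) had an unadjusted p below 0.05, against 12.2% of all genes. Lcn2 and Serpinb2 are among the 6 higher, so this count too is a description. The median log2 fold change of the 29 was 0.16. Of 18 other MMPs, 4 passed the filter, of which Mmp24 and Mmp25 lie outside the chromosome 9 cluster. Mmp24, a membrane-type MMP, was at 17.0 and 15.2 CPM in WT and 13.6 and 20.1 CPM in those labelled Trim24-deficient. Mmp2, Mmp11, Mmp15, Mmp16, Mmp17, Mmp21 and Mmp28 did not pass the filter, and Mmp23 was listed in no library. The gelatinase Mmp2 had 0.25 to 0.67 FPKM. Of 4 further inhibitors, only Timp3, a matrix-bound TIMP, passed the filter, at 2.63 and 4.17 CPM in WT and 2.13 and 0.616 CPM in the other group (log2 fold change -1.30 ± 0.68 SE, edgeR adjusted p = 0.473). Reck, a membrane-anchored MMP inhibitor, had 11 and 8 counts in WT against 6 and 2 counts, and Timp4 and A2m were listed in no library.

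On the side of plasminogen, 6 of 12 listed genes passed the filter. The cell-surface plasminogen receptors were the most abundant. Anxa2, which binds plasminogen in a complex with S100a10, had 592 and 525 FPKM in WT and 592 and 746 FPKM in those labelled Trim24-deficient. S100a10 had 481 and 400 FPKM against 441 and 496 FPKM, and Plgrkt, another plasminogen receptor, 66.2 and 58.9 FPKM against 86.4 and 63.6 FPKM, with overlapping groups for all 3 on this scale. On the CPM scale the groups did not overlap, with WT the lower, for Anxa2 (787 and 669 CPM against 847 and 1083 CPM) and Plgrkt (53.1 and 45.2 CPM against 74.5 and 55.7 CPM), and S100a10 overlapped. None of the 3 passed the rule. Plasminogen itself (Plg) and Vtn were listed in no library, and the activator Plat, the plasmin inhibitor Serpinf2 and the collagen receptor Mrc2 did not pass the filter. Plau was the plasminogen activator with counts enough to test.

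Serpinb2, an inhibitor of urokinase made by activated monocytes and macrophages, is given although it was chosen after its values were seen. So are Mmp25, Lcn2, Cxcr2, Ngp, Camp and S100a8 with S100a9 below. Serpinb2 had 1 count in each WT library and 16 and 44 counts in those labelled Trim24-deficient. It did not pass the rule in edgeR, and it passed the filter on low counts only through the group where it was high, so these counts are a description. Mmp25, a membrane-type MMP of leukocytes, was at 6.46 and 3.96 CPM in WT and at 15.1 and 7.40 CPM in those labelled Trim24-deficient (log2 fold change 1.10 ± 0.45 SE, edgeR adjusted p = 0.37). Among 9 genes of MMP activation and anchoring, 7 passed the filter. The most abundant was Bsg, an inducer of MMPs, at 347 and 269 FPKM in WT against 373 and 424 FPKM (log2 fold change 0.51 ± 0.22 SE, edgeR adjusted p = 0.407). Cd44, which anchors MMP9 on the cell surface, and Tspan14 had log2 fold changes of 0.08 and 0.09. Lcn2, a lipocalin that binds MMP9, had 5 and 4 counts in WT and 18 and 87 counts in the other group.

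Marker lists of other cell types were read beside these genes. The 5 monocyte markers summed to 519 and 644 CPM in WT and to 1648 and 1041 CPM in those labelled Trim24-deficient. All 5 had a log2 fold change above 0. The 11 neutrophil markers summed to 178 and 206 CPM in WT and to 272 and 411 CPM, and of the 4 that passed the filter 3 had a log2 fold change above 0 and none passed the rule. S100a8 was at 17.4 and 15.6 CPM against 35.1 and 118 CPM, and S100a9 at 6.66 and 9.38 CPM against 19.2 and 44.8 CPM. Cxcr2, the tested marker with a log2 fold change below 0 (-0.30), was at 63.6 and 84.0 CPM against 42.8 and 76.85 CPM. Ngp and Camp had at most 3 counts in any library. The granule genes Mpo and Elane were listed in no library, and Ly6g had 0 counts in both WT libraries and 9.41 and 4.47 counts in those labelled Trim24-deficient. Their part in the values of Plaur, Mmp8, Serpinb2, Lcn2 and Mmp13 was not tested. The neutrophil sum, the macrophage sum (9880 CPM) and Plaur, Mmp8, Serpinb2 and Lcn2 were all highest in the library labelled Trim24-deficient replicate 2. The monocyte sum and Mmp13 were highest in replicate 1 of that label, where Mmp13 was close to replicate 2 (62.2 and 57.9 CPM). The T and NK (181 CPM), dendritic (78.4 CPM), endothelial (42.2 CPM) and fibroblast (12.1 CPM) sums were also highest in replicate 1 of that label. In the endothelial list only Pecam1 was highest there, and Kdr was highest in WT replicate 2 (9.2 CPM against 5.3 CPM). In the dendritic list only Xcr1 and Clec9a were highest there, and Flt3 was highest in WT replicate 2 (5.4 CPM against 1.3 CPM). Thy1 gave most of the fibroblast sum there (7.88 CPM). Apart from Thy1 and Pdgfra, every fibroblast marker with counts was higher in another library.

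Beside Timp2, the 7 melanoma markers summed to 812 and 773 CPM in WT and to 611 and 804 CPM in those labelled Trim24-deficient. The lowest library for both was replicate 1 of that label, while the melanoma sums of the groups overlapped and the Timp2 values did not. Of the 7, 6 had a log2 fold change below 0 and none passed the rule. The 8 fibroblast markers, a cell type that makes TIMPs and MMPs in tumors, summed to 7.27 to 12.1 CPM in all 4 libraries, with Lum listed in none and Pdgfra at 0 in 3 of 4. Thy1 alone gave 4.04 and 2.50 CPM of these sums in WT, and 7.88 and 3.90 CPM in those labelled Trim24-deficient. The 5 endothelial markers summed to 18.1 to 42.2 CPM. The part of these cells in the Timp2 values was not tested.

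**Figure D5:**
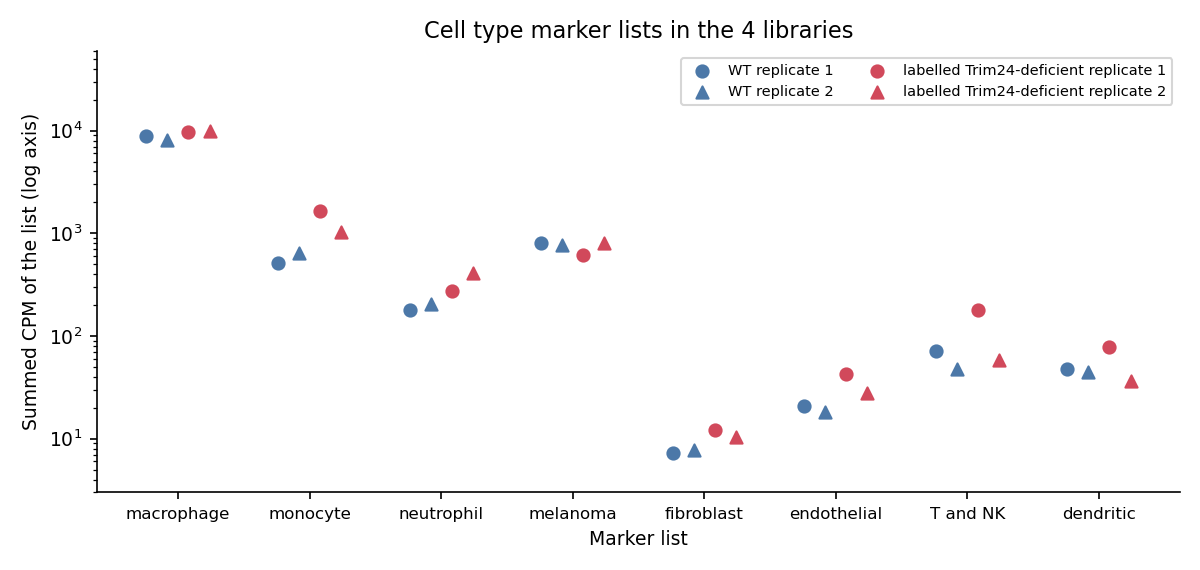
Summed CPM (log axis) of 8 cell type marker lists in the 4 TAM libraries. The macrophage sums lie between 8068 and 9880 CPM, the monocyte and neutrophil sums are higher in both libraries labelled Trim24-deficient than in WT, and the fibroblast sums stay at or below 12.1 CPM.

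Genes with the most similar pattern were sought among the 9113 tested genes whose mean log2 CPM reached 3, by the Euclidean distance between log2 CPM profiles centred over the 4 libraries. Closest to Mmp13 were Prdx5, Adora2b and Ifi205, at distances of 0.0436 to 0.0611. Prdx5, a peroxiredoxin, was at 274 and 194 CPM in WT and 475 and 446 CPM in those labelled Trim24-deficient. Closest to Timp2 were Igfbp4, Nt5dc2 and Pcdhgc3, at 0.0973 to 0.205. Igfbp4, which binds insulin-like growth factors, was at 201 and 257 CPM against 57.7 and 135 CPM. Closest to Plaur were Eno1, Trappc6a and Bckdha, at 0.0406 to 0.0981, and Eno1, a glycolytic enzyme, was at 2601 and 2120 CPM against 2941 and 4292 CPM. With 4 libraries many genes share a pattern, and these distances are a description.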

How the data were processed

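TAM RNA from 2 WT libraries and 2 labelled Trim24-deficient was used. Bowtie alignment to mm10 (GRCm38) and RSEM gave, per gene, the expected count (not normalized), FPKM and transcript length that the authors deposited. Tool versions are not given in the sources used here. A gene missing from a library's table was set to 0, and 16698 of 16739 genes matched a symbol.

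Expected counts were rounded, filtered (filterByExpr, 11302 genes), TMM-scaled and tested for the genotype label with edgeR 4.0.16 (quasi-likelihood test, Benjamini-Hochberg adjustment over all genes) in R 4.3.3. Genes passed the rule at FDR under 0.05 with over 1.5-fold change, the study's own thresholds. CPM values use TMM-scaled totals. Standard errors are the log2 fold change over the square root of F. With 2 libraries per group, the smallest exact two-sided permutation p is 0.333. The replicates differed beyond sampling noise (chi-square per degree of freedom 8.57 in WT and 19.2 in the other group). DESeq2 1.42.0, limma 3.58.1 on log2 FPKM (pseudocount 1 or 0.1), other scalings and filters, a length offset, the replicate number as a block and single libraries left out were alternatives. Scripts were tested on simulated data.

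The 9 genes, the lists and the tests were chosen with earlier results of these data known. Genes were named if they belonged to the 9, passed the rule, were among the 3 with the highest mean FPKM of a list, failed the filter in the MMP, inhibitor or plasminogen lists, or were the 3 nearest in pattern to a member with unadjusted p below 0.05. Protein sequences were not used here. Results for some listed genes are not reported here.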

Additional observations from a re-analysis of the deposited data

How the results depend on the processing

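Of the 9 genes, 0 passed the rule with edgeR on all 4 libraries, and DESeq2 passed 1 (Timp2, adjusted p = 0.0385). The labels give both groups the replicate numbers 1 and 2, but do not say what same-numbered libraries share, and their deviations from the group means correlated at 0.165 across genes. With the replicate number as a block, edgeR passed 2 of the 9 (Mmp13, adjusted p = 0.00037, and Timp2, adjusted p = 1.15e-07), 4 genes of the wider lists and 634 genes in all against 42, with the spread taken from all genes. DESeq2 passed 163 genes in all and 2 of the wider lists, limma passed 23 with a pseudocount of 1 and 20 with 0.1, and the fit without a filter passed 1 gene of the wider lists (Serpinb2). With 1 library left out, where the lone library was assumed to vary like the other group, 0 to 2 of the 9 genes, 25 to 652 of all genes and 0 to 3 of the wider lists passed. Over the 9 alternatives that kept all libraries, the adjusted p ran from 0.00037 to 0.284 for Mmp13, from 1.15e-07 to 0.312 for Timp2 and from 0.0839 to 0.454 for Plaur. The log2 fold change of Plau turned to -0.11 with library totals, -0.022 with upper-quartile scaling and -0.11 with limma at either pseudocount, and ran from -0.012 to 0.085 with 1 library left out. That of Mmp9 ran from -0.83 to 1.0 and that of Timp1 from -1.03 to 0.56 with 1 library left out (-0.06 and -0.83 below 0 for Mmp9, 0.41 and 0.56 above 0 for Timp1). Library totals moved the median of all genes to -0.15, and Mmp12, Mmp13, Mmp14, Mmp19, Timp2 and Plaur kept their direction under every alternative run. The log2 difference in the ratio of MMP to TIMP sums, 1.49, was 0.45 with Timp1 alone as the inhibitor and ran from 0.83 to 2.15 with 1 library left out. The cause of these changes was not tested. Timp1 and Mmp9 had 7 to 22 and 13 to 48 counts per library, and the parts of depth and of replicate spread in their intervals were not separated.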

Other observations

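The ADAM sheddases, membrane metalloproteinases that release cell-surface proteins, were read from a list of 8 genes, of which 7 passed the filter on low counts, and none passed a fold change above 1.5 with an adjusted p below 0.05 in edgeR's quasi-likelihood test or had an unadjusted p below 0.05. Adam8, the most abundant at 204 and 203 FPKM in WT and 206 and 184 FPKM in the libraries with the label Trim24-deficient, stood above Plaur in every library. Adam15 (101.5 and 97.6 FPKM against 91.1 and 82.4 FPKM) and Adam9 (55.3 and 57.1 FPKM against 55.1 and 49.2 FPKM) followed, with log2 fold changes of -0.06 and 0.04.

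Of 11 matrix substrates, 4 passed the filter and none the rule. Spp1, a secreted matrix glycoprotein of macrophages cut by MMPs, was at 323 and 841 CPM in WT and 265 and 907 CPM in the libraries with the label Trim24-deficient, so replicate 2 was the higher library in each group, as for Mmp9, Mmp8 and Mmp27. Fn1 (48.9 and 75.0 CPM against 49.2 and 80.5 CPM) had the same order within groups. Sparc, a collagen-binding protein chosen after its values were seen, was at 13.1 and 16.9 CPM in WT and 6.39 and 6.78 CPM in the other group (log2 fold change -1.18 ± 0.32 SE, edgeR adjusted p = 0.198). The collagens Col1a1, Col1a2, Col3a1, Col4a1 and Col4a2 did not pass the filter, at 3.54 CPM or less in every library.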
